A study of Rattus norvegicus with 2 samples.

Results

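Genes that carry circulating fat into the heart were followed in single-cell RNA sequencing of neonatal rat cardiac cells after lipopolysaccharide (LPS). The set was chosen as a list of 7 genes, *Gpihbp1*, *Lpl*, *Cd36*, *Fabp3*, *Fabp4*, *Fabp5* and *Angptl4*, and 6 of the 7 were found by symbol among the 25399 genes of the count matrices. *Cd36* is not analysed here. Cardiac cells from Sprague-Dawley rats aged 1 to 3 days, pups of both sexes pooled, were released with trypsin and enriched for intrinsic cardiac adrenergic (ICA) cells on a Percoll gradient. They were treated for 2 h with saline (control) or with LPS at 1 µg/ml, lifted again with trypsin and EDTA, and made into 1 library per condition with the 10X Genomics 3′ kit, so the cells met LPS outside the vessel wall. No genetic change is given for either group. There are no replicates, so no test was made, and LPS and the handling of each library cannot be told apart.

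Lipoprotein lipase, the product of *Lpl*, frees fatty acids from triglyceride-rich lipoproteins. In the heart it is made largely by cardiomyocytes, and GPIHBP1, a protein of capillary endothelial cells, picks it up and carries it to the luminal face of the capillary. ANGPTL4 is a secreted inhibitor of the lipase, CD36 takes up fatty acids at the cell surface, and the fatty acid-binding proteins FABP4 and FABP5 (capillary endothelium) and FABP3 (cardiomyocytes) carry them inside cells.

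The control library held 11531 cells with a median of 12479 unique molecular identifiers (UMIs) per cell, and the LPS library 12689 cells with a median of 9432. Levels are given as a gene's summed UMIs in a cluster per 1000000 UMIs of that cluster (CPM), with the clusters and cell type names given by the authors. Of the 11 clusters, 10 held at least 20 cells in each library and were used. All intervals are at 95% and cover counting error only. The samples are labelled ICA cells, but cluster 0, named Fibroblast, held 57.2% of the clustered control cells and 55.4% of the LPS cells. Cluster 4, named Endothelial, held 723 control and 823 LPS cells, at medians of 12499 and 9972 UMIs per cell. Its name was checked by the summed level of 10 endothelial markers, of which 9 were found by symbol. The sum was 2573 CPM in control and 2243 CPM in LPS. In cluster 0 the same sum was 110 and 78.2 CPM. All 9 were above 0 in both clusters, so being above 0 does not tell them apart. Cluster 5, also named Endothelial, had sums of 1682 and 1370 CPM, with capillary markers at 215 and 175 CPM against 916 and 612 CPM in cluster 4. The libraries shared 194 cell barcodes.

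By level, *Gpihbp1*, *Fabp4* and *Fabp5* were highest in cluster 4, named Endothelial, of the 10 clusters, in either library. This did not extend to both endothelial clusters. For *Fabp5*, cluster 5 at 652 CPM in control and 324 CPM in LPS lay below the macrophages of cluster 6 at 1127 and 616 CPM. *Lpl* was highest in clusters 2 and 3, *Fabp3* in cluster 3, and *Angptl4* in cluster 2. Since every expressed gene could help to place a cell in a cluster, levels between clusters are a description. Capture at the 3′ end differs between genes, so levels were set side by side within a gene. The UMIs of a gene per those of another are given only to compare clusters or libraries.

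**Figure D1:**
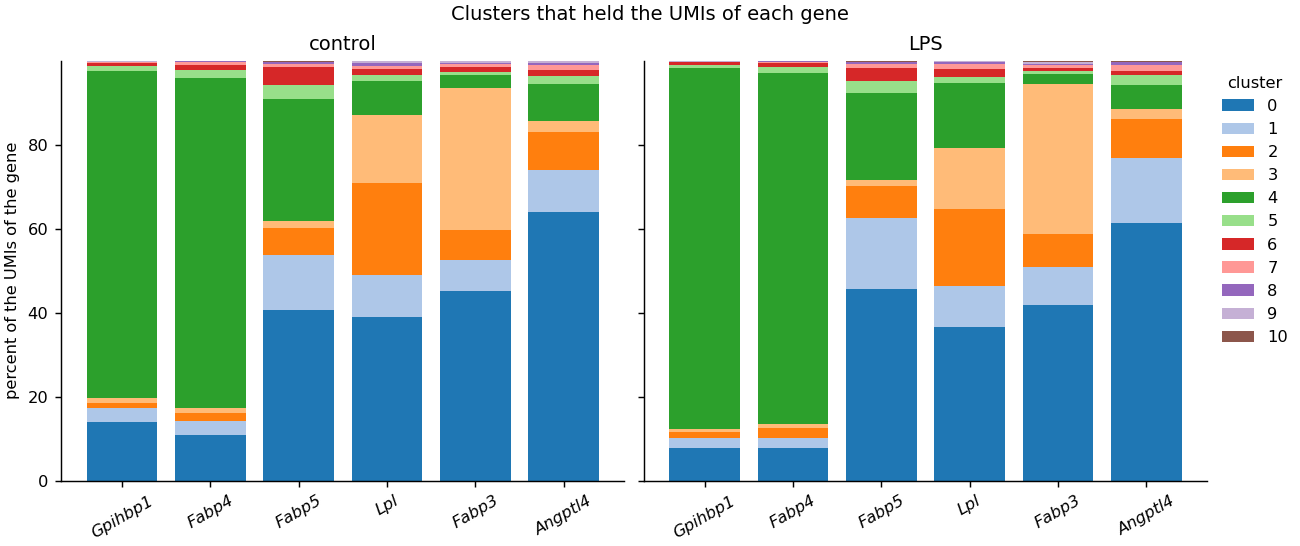
Stacked bars give, for each gene and library, the percent of its UMIs that fell in each cluster (y axis, 0 to 100%). Cluster 4 (green) held 78.0% of the *Gpihbp1* UMIs and 78.6% of the *Fabp4* UMIs in control, but 8.06% of the *Lpl* and 3.12% of the *Fabp3* UMIs.

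The plot of UMIs by cluster shows where the transcripts of each gene lay. In cluster 4 were 78.0% of all *Gpihbp1* UMIs in control and 86.0% in LPS, and 78.6% and 83.7% of those of *Fabp4*. For *Fabp5* the shares were 29.1% and 20.8%, since the large fibroblast cluster 0 held 40.5% and 45.7%. Most *Angptl4* UMIs, 64.1% in control and 61.3% in LPS, came from cluster 0. *Fabp3* divided between cluster 0, with 45.1% and 41.8%, and cluster 3, with 33.8% and 35.9%.

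**Figure D2:**
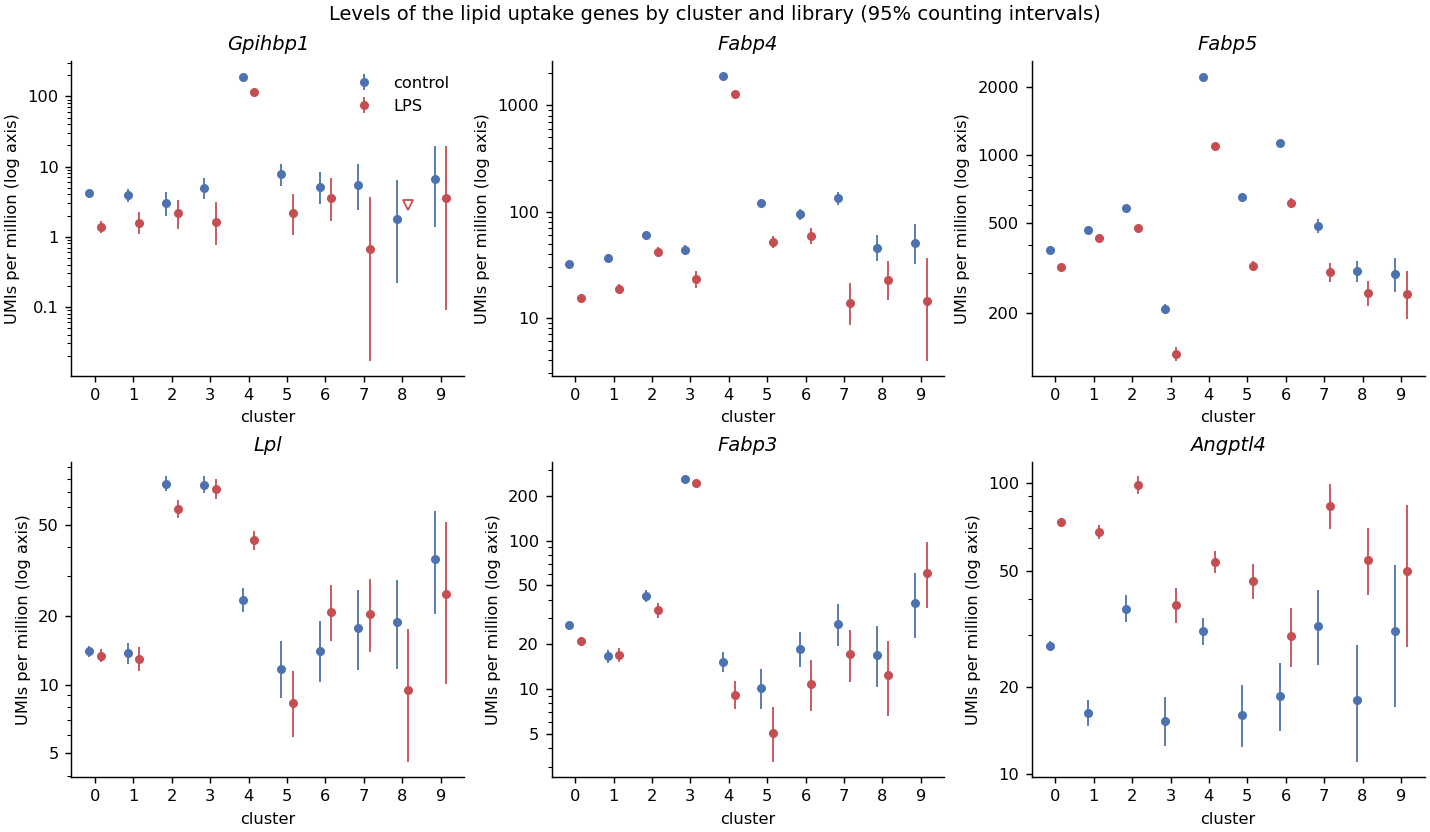
Points give the level of each gene in clusters 0 to 9 (x axis) in CPM (y axis, log scale, drawn as UMIs per 1000000) in the control (blue) and LPS (red) library, with bars for the 95% counting interval; the open triangle stands at the 3 UMIs that a count of 0 allows. *Gpihbp1* and *Fabp4* stand far above the other clusters in cluster 4, and the red *Angptl4* points lie above the blue ones.

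*Gpihbp1* (ENSRNOG00000007475), the capillary carrier of lipoprotein lipase, was at 192 CPM (184 to 200, 2132 UMIs) in control cells of cluster 4 and at 115 CPM (108 to 122, 1120 UMIs) in LPS cells. LPS over control this is a ratio of 0.600 (0.558 to 0.646), and the counting intervals of the libraries did not overlap. Of all genes in cluster 4, 29.1% had a ratio interval below 1. The *Gpihbp1* ratio depended on how endothelial cells were defined. With any cell holding at least 3 endothelial markers as the class, it was 0.988. Of these cells, 43.0% in control and 72.5% in LPS lay in clusters 4 and 5. With markers and levels both taken from cells cut to 3000 UMIs, an alternative chosen after seeing the data, it was 0.528. Cluster 4 cells cut in the same way gave 0.516. No other cluster came near the level of cluster 4. The next in order, cluster 5 in control at 7.77 CPM and cluster 6 in LPS at 3.62 CPM, stood 24.7-fold and 31.8-fold lower. From the second place down, no cluster differed from its neighbour in the order beyond counting error in either library. In cluster 8 the LPS library had 0 UMIs, which allows a level of up to 2.86 CPM.

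When every cell was cut down at random to 3000 of its UMIs (thinning), *Gpihbp1* was seen in 31.8% (28.4 to 35.3) of 723 control cells and 19.97% (17.2 to 22.9) of 796 LPS cells of cluster 4. In fibroblast cluster 0, a cell type not known for *Gpihbp1*, it was 1.18% and 0.342% of thinned cells, with medians before thinning of 12968 and 9822 UMIs. Cluster 5, the other cluster named Endothelial, lay at this background with 5 of 350 control cells and 2 of 436 LPS cells. Its few *Gpihbp1* UMIs were also uneven, as 3 cells held 16 of the 33 control UMIs. For each 100 *Fabp4* UMIs there were 10.1 (9.67 to 10.6) *Gpihbp1* UMIs in cluster 4 of the control library and 13.2 (11.8 to 14.7) in cluster 0, and 8.95 (8.41 to 9.52) and 8.84 (7.14 to 10.8) in the LPS library. In cluster 2 the figure was 4.98 (3.28 to 7.28) in control and 5.10 (2.99 to 8.18) in LPS. The source of the low *Gpihbp1* and *Fabp4* counts outside cluster 4 was not tested.

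*Fabp4* (ENSRNOG00000010805), a fatty acid-binding protein of adipocytes, macrophages and capillary endothelium, was at 1894 CPM (1868 to 1920) in control and 1285 CPM (1263 to 1308) in LPS cells of cluster 4. That is a ratio of 0.679 (0.664 to 0.694), and the counting intervals did not overlap. Of all genes in cluster 4, 29.1% had a ratio interval below 1. In the class of cells with at least 3 endothelial markers the direction of *Fabp4* turned, at 1.11. With markers and levels both taken after thinning the ratio was 0.635, against 0.625 for thinned cells of cluster 4. Of 5 adipocyte markers in cluster 4, *Lep* was at 0, *Adipoq*, *Plin1* and *Cfd* were at or below 1.53 CPM, and *Cidec* went from 1.98 to 13.4 CPM. The 10 listed macrophage markers summed to 19.0 CPM in control and 10.9 CPM in LPS there, against 2061 and 1625 CPM in the macrophages of cluster 6. Of them, *C1qa*, *C1qb* and *C1qc* were each at or below 0.809 CPM in cluster 4 in either library. Cluster 5 was at 120 CPM in control and 52.3 CPM in LPS, 15.8-fold and 24.6-fold below cluster 4.

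Outside the endothelial clusters, single cells weighed on the *Fabp4* level. In cluster 7, a small fibroblast cluster, 1 control cell held 122 of 195 *Fabp4* UMIs. The ratio there was 0.103 (0.0626 to 0.163) from 134 CPM in control to 13.8 CPM in LPS, and without the 3 cells with the most *Fabp4* UMIs in each library the levels were 31.5 and 10.8 CPM. In the macrophages of cluster 6, *Fabp4* was at 94.7 CPM in control and 59.1 CPM in LPS, with 34.9% and 53.1% of its UMIs in 3 cells.

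*Fabp5* (ENSRNOG00000049075), a widely expressed relative, had the largest difference of the 6 genes in cluster 4. It was at 2218 CPM (2190 to 2246) in control and 1098 CPM (1078 to 1119) in LPS, a ratio of 0.495 (0.484 to 0.507). In the class of cells with at least 3 endothelial markers it was 0.744. With markers and levels both taken after thinning it was 0.476, against 0.474 for thinned cells of cluster 4. Macrophages came second in the order with 1127 CPM in control and 616 CPM in LPS, a ratio of 0.547 (0.514 to 0.581). Cluster 5 went from 652 to 324 CPM, a ratio of 0.498 (0.467 to 0.530). In the fibroblasts of clusters 0 and 1 the ratios were nearer to 1, at 0.840 (0.826 to 0.854) and 0.925 (0.899 to 0.951). In those clusters 39.0% and 44.5% of genes had a lower ratio than *Fabp5*. The interval lay below 1 in 9 of the 10 clusters and included 1 in cluster 9, the smallest in UMIs. The share of all genes with an interval below 1 ran from 9.86% in cluster 9 to 45.7% in cluster 0.

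**Figure D3:**
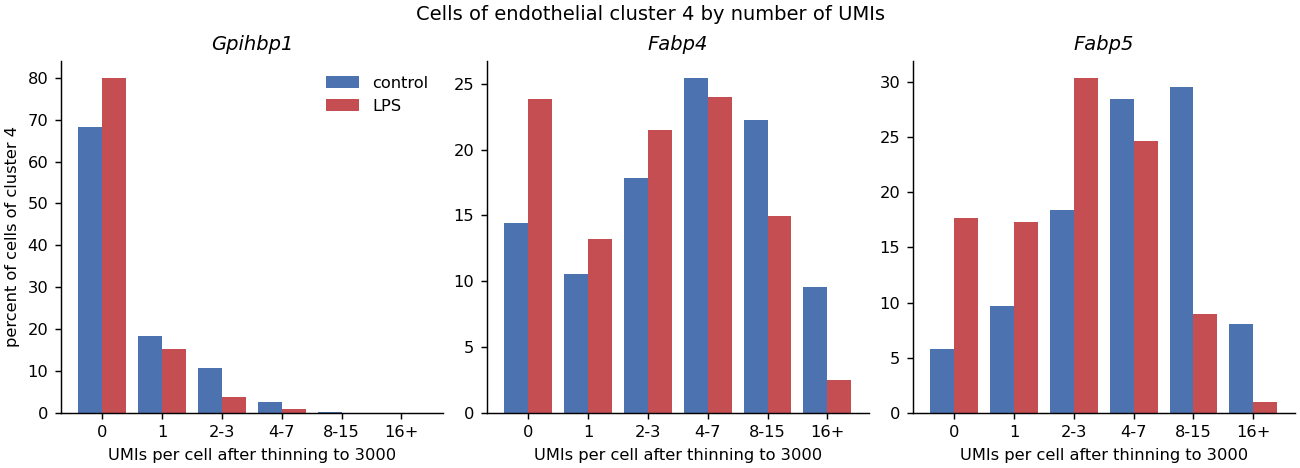
Bars give the percent of cluster 4 cells (y axis) with 0, 1, 2-3, 4-7, 8-15 or at least 16 UMIs of the gene after thinning to 3000 UMIs per cell (x axis), in control (blue, 723 cells) and LPS (red, 796 cells). For *Fabp5*, 29.6% of control cells and 8.92% of LPS cells held 8 to 15 UMIs.

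The plot of cells by number of UMIs shows that the lower sums of cluster 4 were spread over its cells. *Fabp5* was seen in 94.2% of the thinned control cells and 82.3% of the LPS cells, with medians of 6 and 2 UMIs per cell. *Fabp4* was seen in 85.6% and 76.1%, with medians of 5 and 3 UMIs. At the upper end, 9.54% of control cells and 2.51% of LPS cells held at least 16 *Fabp4* UMIs. Without thinning, the 3 cells with the most UMIs held 2.54% and 2.79% of the *Fabp4* UMIs and 2.44% and 2.57% of the *Fabp5* UMIs, so a few cells did not carry these levels. In control, 222 of the 230 thinned cells with a *Gpihbp1* UMI also held *Fabp4*, and 146 of 159 did in LPS.

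*Lpl* (ENSRNOG00000012181), the lipase itself, went the other way in cluster 4. Its level was 23.6 CPM (20.9 to 26.7, 263 UMIs) in control and 42.9 CPM (38.9 to 47.3, 418 UMIs) in LPS, a ratio of 1.82 (1.55 to 2.13) with intervals that did not overlap. Cluster 4 was the 1 cluster of 8 with at least 50 *Lpl* UMIs in which the interval lay above 1. There 17.2% of all genes had such an interval. In the macrophages of cluster 6, with 44 control and 52 LPS UMIs, the *Lpl* ratio was 1.48 (0.972 to 2.26). Its interval included 1, but 90.8% of genes in cluster 6 had a lower ratio. Cluster 2 was left uncommented by the authors, and 9 pericyte and smooth muscle markers summed there to 2570 CPM in control. It had 76.0 CPM of *Lpl* in control and 59.1 CPM in LPS, a ratio of 0.777 (0.691 to 0.872). In cluster 2, 25.7% of genes had a lower ratio than *Lpl*, and 29.8% had an interval below 1. In cluster 5, the other cluster named Endothelial, *Lpl* was at 11.8 CPM in control and 8.35 CPM in LPS, a ratio of 0.710 (0.453 to 1.10) whose interval included 1. Cluster 3, named ICA and Cardiomyocyte, had 75.2 and 72.1 CPM, a ratio of 0.959 (0.840 to 1.09). In control, clusters 2 and 3 did not differ beyond counting error, and in LPS cluster 3 was 1.22-fold (1.07 to 1.40) above cluster 2. The CPM of both include mitochondrial UMIs, whose median share in control and LPS was 17.9% and 17.3% in cluster 3. In cluster 2 it was 3.93% and 3.48%. The order of these clusters was not taken without mitochondrial UMIs and may depend on them. Over all cells with a cluster, *Lpl* was at 21.4 CPM in control and 21.2 CPM in LPS.

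Cells of cluster 4 with *Lpl* were few. The thinned shares were 5.39% (3.86 to 7.30) in control and 9.42% (7.48 to 11.7) in LPS, against 3.80% and 3.70% in fibroblast cluster 0, where *Lpl* stood at 14.0 and 13.4 CPM. The 39 control and 75 LPS cells of cluster 4 with an *Lpl* UMI carried endothelial markers at 2564 and 2751 CPM, against 2658 and 2226 CPM in the cells without. Their cardiomyocyte markers summed to 274 and 213 CPM, against 296 and 256 CPM in the cells without, and their pericyte and smooth muscle markers to 368 and 227 CPM, against 314 and 232 CPM. Fibroblast markers summed to 3068 and 1716 CPM in the cells with *Lpl*, against 2767 and 2018 CPM in the cells without. *Gpihbp1* was seen in 16 of the 39 and 23 of the 75 cells. Over the whole cluster there were 12.3 (10.8 to 14.0) *Lpl* UMIs for each 100 *Gpihbp1* UMIs in control and 37.3 (33.3 to 41.8) in LPS.

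*Angptl4* (ENSRNOG00000007545), the inhibitor of the lipase, was higher in LPS in 9 of 9 clusters with at least 50 of its UMIs. The source of its counts outside the fibroblast clusters was not tested. In fibroblast cluster 0, which held most of its UMIs, fibroblast markers summed to 11692 CPM in control and 10721 CPM in LPS. They also summed to 3283 and 2367 CPM in cluster 4, and to 3906 and 2977 CPM in cluster 6. *Angptl4* in cluster 4 was at 31.0 CPM (27.8 to 34.5) in control and 53.7 CPM (49.2 to 58.5) in LPS, a ratio of 1.73 (1.51 to 1.99). This ratio was below that of 7 other clusters with at least 50 *Angptl4* UMIs. The fibroblasts of cluster 1 had the highest, at 4.18 (3.74 to 4.69), from 16.2 to 67.9 CPM. Cluster 0 went from 27.6 to 73.5 CPM, a ratio of 2.66 (2.54 to 2.79). In cluster 3 it went from 15.3 to 38.1 CPM, a ratio of 2.50 (1.97 to 3.18). Cluster 5, with 68 control and 210 LPS UMIs, had a ratio of 2.88 (2.18 to 3.85). The macrophages of cluster 6 had the lowest of the 9 clusters at 1.60 (1.12 to 2.29), from 18.6 to 29.8 CPM. After thinning to 3000 UMIs per cell the ratio in cluster 6 was 0.969, with 13 UMIs in each library.

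*Angptl4* levels ran from 37.0 CPM (33.3 to 41.2) in cluster 2 down to 15.3 CPM (12.5 to 18.4) in cluster 3 in control, and from 98.3 CPM (91.7 to 105) in cluster 2 down to 29.8 CPM (23.4 to 37.4) in cluster 6 in LPS. Between neighbours in the order, cluster 4 lay above cluster 0 and cluster 0 above cluster 6 beyond counting error in control, and cluster 0 above cluster 1 in LPS. In control, cluster 2 at 37.0 CPM did not differ beyond counting error from cluster 7 at 32.2 CPM, nor cluster 7 from cluster 9 or cluster 9 from cluster 4. In LPS, cluster 2 at 98.3 CPM was followed by cluster 7 at 83.5 CPM, again within counting error, and cluster 4 was sixth. After thinning, *Angptl4* was seen in 9.54% of control and 13.9% of LPS cells of cluster 4. The corresponding shares of cluster 0 were 8.20% and 18.5%.

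*Fabp3* (ENSRNOG00000012879), the heart-type binding protein, was at 259 CPM (247 to 271) in control and 243 CPM (230 to 256) in LPS in cluster 3, a ratio of 0.940 (0.875 to 1.009). That cluster stood 6.10-fold (5.47 to 6.82) above cluster 2, the next in order, in control, and 7.14-fold (6.28 to 8.14) above cluster 2 in LPS. In LPS the next in order was cluster 9, with 17 *Fabp3* UMIs in 58 cells, 3.998-fold (2.49 to 6.88) lower. The 10 cardiomyocyte markers of cluster 3 summed to 13433 and 13937 CPM. After thinning, 434 of its 836 control cells and 463 of its 926 LPS cells held a *Fabp3* UMI. In cluster 4 *Fabp3* was at 15.2 and 9.14 CPM, a ratio of 0.602 (0.460 to 0.783). There it was seen in 3.73% and 2.39% of thinned cells, below the 7.26% and 5.81% of fibroblast cluster 0. The share in cluster 4 thus did not exceed that of the fibroblasts, and its source was not tested.

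Of the 6 genes, 2 matched an entry by symbol in the RefSeq promoter table used here (GRCr8). Their 250 bases upstream of the start are shown, since *Angptl4* was higher in LPS in the most clusters, and *Fabp3*, whose interval in cluster 3 included 1, stands beside it. They lie on chr7:15258682-15258931 (*Angptl4*, minus strand) and chr5:147935875-147936124 (*Fabp3*, plus strand), and read 5′ to 3′ along the gene. Capitals mark a match to the core of the hypoxia-inducible factor site.
Angptl4: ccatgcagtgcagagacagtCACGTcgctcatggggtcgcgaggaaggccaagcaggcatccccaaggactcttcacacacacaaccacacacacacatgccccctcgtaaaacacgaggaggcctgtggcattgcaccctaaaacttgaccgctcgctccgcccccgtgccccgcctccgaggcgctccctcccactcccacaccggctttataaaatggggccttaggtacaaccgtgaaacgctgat
Fabp3: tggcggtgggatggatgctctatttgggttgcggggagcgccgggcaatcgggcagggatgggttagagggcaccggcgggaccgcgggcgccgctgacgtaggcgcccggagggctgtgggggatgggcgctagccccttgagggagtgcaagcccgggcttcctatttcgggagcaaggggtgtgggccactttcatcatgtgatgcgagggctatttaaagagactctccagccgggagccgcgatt

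Both strands were searched for 4 motifs, none of which contains another. The hypoxia-inducible factor core ACGTG had 1 match, on the opposite strand of *Angptl4*, that begins 230 bases before the start, and none in *Fabp3*. That motif was held by 16.6% of 33469 promoters of the same length. The direct repeat of PPAR and RXR (AGGTCA, any 1 base, AGGTCA), the NF-kappaB motif (GGG, any 2 bases, TTTCC) and the AP-1 motif (TGANTCA) had no match in either window, and were held by 0.0508%, 1.30% and 6.34% of promoters. A match is a description of letters and not of a bound site.

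**Figure D4:**
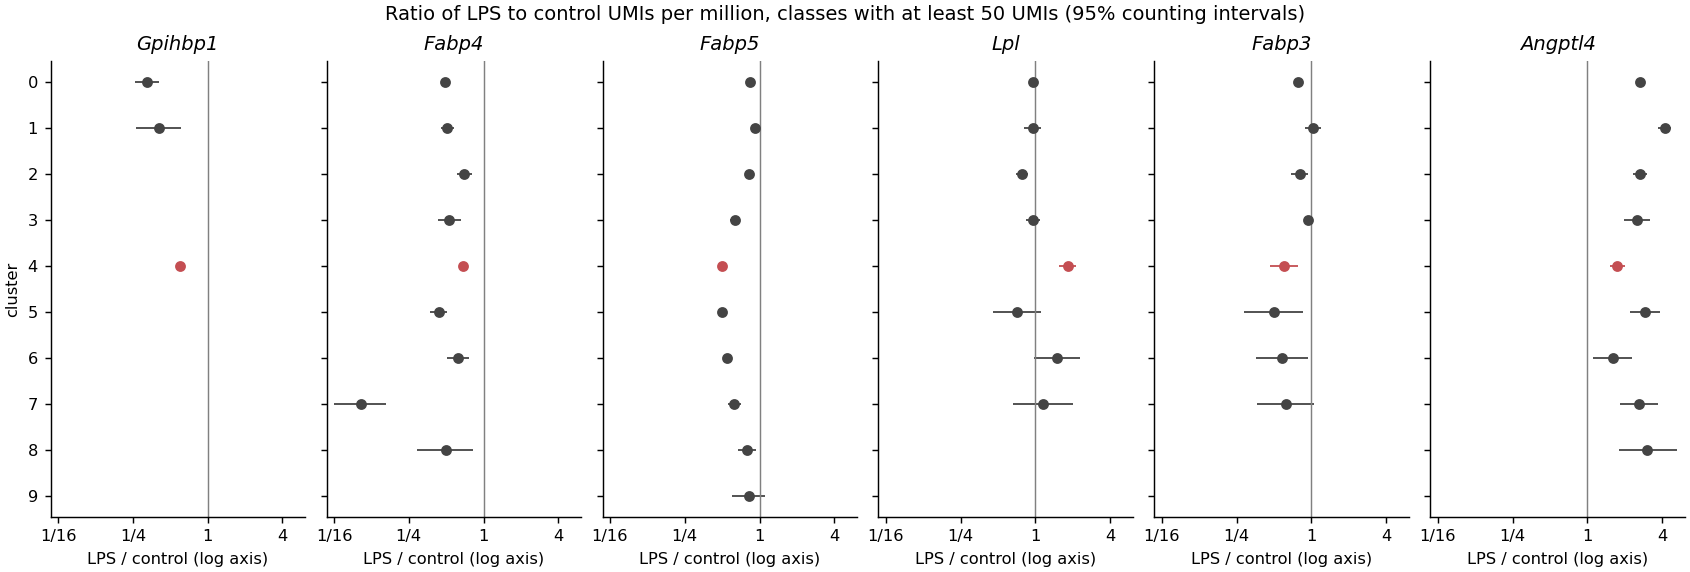
Points give the ratio of LPS to control CPM (x axis, log scale) for each cluster (y axis) with at least 50 UMIs of the gene over both libraries, with bars for the 95% counting interval and cluster 4 in red; the vertical line marks 1. *Angptl4* lies right of the line in 9 of 9 clusters, *Fabp4* left of it in 9 of 9, and *Lpl* right of it beyond its interval in cluster 4.

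The plot of ratios by cluster sets the genes side by side over the clusters with at least 50 of their UMIs. *Fabp4* had an interval below 1 in 9 of 9 clusters, *Fabp5* in 9 of 10, *Gpihbp1* in 3 of 3, *Fabp3* in 5 of 8 and *Lpl* in 1 of 8. The clusters of *Gpihbp1* were 0, 1 and 4. The source of the low *Gpihbp1* and *Fabp4* counts outside cluster 4 was not tested, so these clusters may not be separate observations. The share of all genes with an interval below 1 was 45.7% in cluster 0, 30.7% in cluster 1, 29.8% in cluster 2, 12.0% in cluster 3, 29.1% in cluster 4, 24.2% in cluster 5, 41.2% in cluster 6, 15.4% in cluster 7, 9.95% in cluster 8 and 9.86% in cluster 9. Intervals below 1 were thus most common in clusters 0 and 6 and rarer in clusters 3, 7, 8 and 9. *Angptl4* had an interval above 1 in 9 of 9 clusters and *Lpl* in 1 of 8. The source of the *Angptl4* counts outside the fibroblast clusters was not tested, and its ratio in cluster 6 was 0.969 after thinning. From cluster 0 to cluster 8 the share of genes with an interval above 1 was 25.2%, 22.8%, 14.3%, 12.9%, 17.2%, 17.9%, 12.7%, 15.7% and 10.6%. *Angptl4* was at least 2-fold higher in LPS in 7 of 9 clusters, all but clusters 4 and 6. The share of genes at least 2-fold higher was 3.44% in cluster 0, 3.23% in cluster 1, 2.86% in cluster 2, 1.70% in cluster 3, 4.24% in cluster 5, 4.82% in cluster 6, 4.70% in cluster 7 and 2.48% in cluster 8. The counts by interval depend on the number of UMIs as well as on the ratio. The clusters come from the same pair of libraries and are not replicates of each other.

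In cluster 4 all 6 genes passed the minimum of 50 UMIs, as did 9492 genes in all. *Fabp5* was the 1 gene of the 6 at least 2-fold lower in LPS, against 4.08% of genes. Its interval (0.484 to 0.507) included 0.5, and the ratio was 0.526 after division by the median ratio of all genes. Of the 6, 0 were at least 2-fold higher, against 2.65%. The counting interval lay below 1 for 4 of the 6, against 29.1% of genes, and above 1 for 2, against 17.2%. *Fabp3*, whose source in cluster 4 was not tested, is 1 of these 4. More UMIs give a narrower interval, and *Fabp4* and *Fabp5* had 21071 and 24673 UMIs in control, where the background starts at 50. The counts by interval thus depend on the number of UMIs as well as on the ratio. The median log2 ratio of the 6 was -0.65, and that of all genes -0.09. *Lpl* had a higher ratio than 96.7% of genes and *Angptl4* than 96.2%, whereas 3.90% of genes had a lower ratio than *Fabp5*, 8.75% than *Gpihbp1* and 14.0% than *Fabp4*. In cluster 3, 5 of the 6 passed the minimum. There *Angptl4* was at least 2-fold higher, against 1.70% of genes, and none was 2-fold lower, against 1.69%.

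Markers of endothelial and other cells also differed between the libraries within cluster 4. The junction gene *Cdh5* and the receptor gene *Kdr* had ratios of 0.987 (0.948 to 1.03) and 1.05 (0.953 to 1.15), while *Flt1*, *Tie1*, *Egfl7*, *Emcn*, *Cldn5* and *Tek* lay between 0.677 and 0.909 and *Esam* was at 1.45. Of the 6 capillary markers, *Rgcc* had a ratio of 0.323, *Aqp1* of 0.644, *Car4* of 0.857 and *Sgk1* of 1.39, and *Btnl9* and *Mfsd2a* were at or below 2.34 CPM. The capillary sum of 916 and 612 CPM thus lay lower in LPS beside *Gpihbp1*, *Fabp4* and *Fabp5*. The 4 venous or activated endothelial markers found summed to 118 and 117 CPM: *Selp* went from 3.87 to 43.6 CPM, while *Plvap*, *Vwf* and *Nr2f2* had ratios of 0.668, 0.801 and 0.474. Of 4 lymphatic markers, *Lyve1* went from 169 to 366 CPM, and *Prox1*, *Flt4* and *Pdpn* were at 0.662, 0.913 and 1.004. The *Prox1* ratio (0.284 to 1.46) rests on 19 control and 11 LPS UMIs. Fibroblast markers (9 of 9 above 0) summed to 3283 CPM in control and 2367 CPM in LPS, cardiomyocyte markers (9 of 10, *Myl2* at 0) to 317 and 252 CPM, pericyte and smooth muscle markers (9 of 9) to 397 and 273 CPM, and macrophage markers (9 of 10 in control and 8 of 10 in LPS, *Cd163* at 0 in both and *Csf1r* in LPS) to 19.0 and 10.9 CPM. The part of these shifts in the ratios of the lipid uptake genes was not tested.

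**Figure D5:**
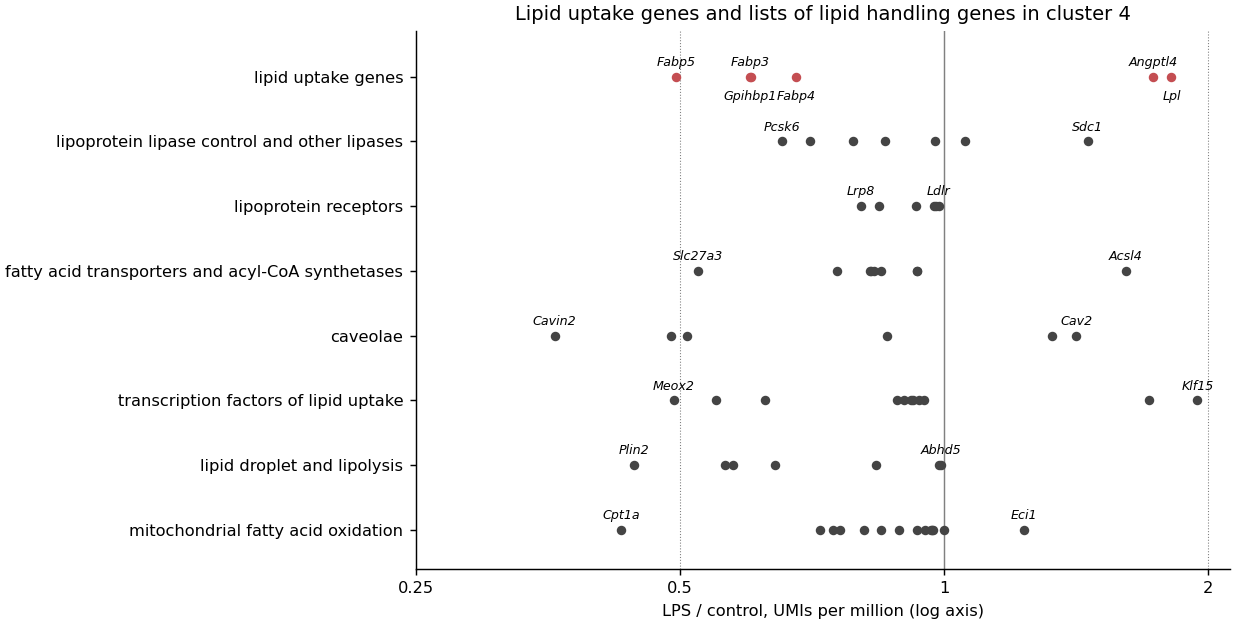
Each point is a gene with at least 50 UMIs in cluster 4, placed by its ratio of LPS to control CPM (x axis, log scale) and its list (y axis); dotted lines mark 2-fold, and the ends of each list and all 6 lipid uptake genes (red) are named. *Cavin2*, *Cpt1a*, *Plin2*, *Meox2* and *Fabp5* are among the genes left of the lower line.

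Other genes of lipid handling were described by 7 lists, shown in the plot of lists for cluster 4. Of all genes in cluster 4, 2.65% were at least 2-fold higher in LPS and 4.08% at least 2-fold lower. A short list with none is thus near that share. Among genes that fold, cut or anchor lipases, 7 of 15 passed the minimum and none was 2-fold different. Their median log2 ratio was -0.22, with the convertase gene *Pcsk6* at 0.653 (0.378 to 1.10) and the heparan sulphate carrier *Sdc1* at 1.46 (1.19 to 1.79). Of 7 lipoprotein receptors, 6 passed, none was 2-fold different and the median was -0.07. The receptor gene *Lrp1* was at 0.842 and *Lrp8* at 0.803. Of 11 fatty acid transporters and acyl-CoA synthetases, 9 passed, none was 2-fold different and the median was -0.27. Here the transporter gene *Slc27a3* was at 0.524 (0.381 to 0.715) and *Acsl4*, which activates arachidonic acid, at 1.61 (1.42 to 1.83).

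The 6 caveolar genes all passed, and 2 were at least 2-fold lower, against 4.08% of all genes. The coat gene *Cavin2* went from 105 to 37.9 CPM, a ratio of 0.360 (0.319 to 0.405), and the muscle caveolin *Cav3* from 9.26 to 4.52 CPM. *Cav1*, the main endothelial caveolin, was higher at 1.33 (1.29 to 1.36), and the median of the 6 was -0.59.

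Of 14 transcription factors of lipid uptake, 11 passed and 1 was 2-fold lower, against 4.08% of all genes, with a median of -0.12. *Meox2*, which with *Tcf15* drives fatty acid uptake in heart endothelium, went from 52.9 to 26.0 CPM, a ratio of 0.492 (0.423 to 0.571), while *Tcf15* itself was at 0.899 (0.837 to 0.965). *Klf15* was at 1.94 (1.39 to 2.75). Of the fatty acid-sensing nuclear receptors, *Pparg* was at 0.549 (0.428 to 0.701) and *Ppard* at 1.71 (1.49 to 1.98). The others that passed, *Rxrb*, *Srebf1*, *Srebf2*, *Nr1h2*, *Nr1h3* and *Foxo1*, lay between 0.625 and 0.949. Apart from *Meox2* and *Klf15*, these factors, and *Cav1*, lie outside the naming rule for cluster 4 and were chosen after their values were seen.

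Of 15 genes of the lipid droplet and lipolysis 7 passed, all 7 ratios were below 1, against 60.7% of all genes, and the median was -0.64. The droplet coat gene *Plin2* went from 17.2 to 7.60 CPM, a ratio of 0.443 (0.334 to 0.582), and the monoglyceride lipase gene *Mgll* was at 0.563 (0.413 to 0.761). Of 16 genes of mitochondrial fatty acid oxidation 14 passed, with a median of -0.14. *Cpt1a*, the gate of fatty acid entry into mitochondria, went from 16.5 to 7.09 CPM, a ratio of 0.429 (0.320 to 0.568), and the thiolase gene *Acaa2* was at 0.722 (0.630 to 0.828).

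In cluster 3, named ICA and Cardiomyocyte, the lists differed less between the libraries, and so did all genes. There 1.70% of all genes were at least 2-fold higher in LPS and 1.69% at least 2-fold lower, against 2.65% and 4.08% in cluster 4. Between 6 and 14 genes of each list passed the minimum. *Slc27a3* was the 1 gene of the 7 lists past 2-fold, from 14.8 to 4.38 CPM, a ratio of 0.295 (0.181 to 0.463). The list medians lay between -0.24 for the lipid droplet genes and 0.06 for the genes that fold, cut or anchor lipases, beside a median of -0.01 for all genes. Further genes with the largest differences of their lists were *Dgat2* at 0.598, *G0s2* at 0.628, *Cavin2* at 0.634, *Nr1h3* at 0.656, *Cav2* at 0.753, *Scarb1* at 0.787, *Etfdh* at 0.852 and *Acadm* at 0.858. On the higher side were *Acsl4* at 1.40, *Glce* at 1.40, *Sdc1* at 1.38, *Ppard* at 1.29 and *Lrp8* at 1.22.

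Likeness of pattern was taken as the Pearson correlation of log2(CPM + 1) over 20 classes, the 10 clusters in each library. These points share libraries and depth, so the values are a description with no test. The genes most like *Gpihbp1* were *Cldn5* (r = 0.97), *Fabp4* (0.93), *Sparcl1* (0.92), *Slc24a1* (0.92) and *RGD1565166* (0.91). *Fabp4* went with *Cldn5* (0.94), *Pik3r6* (0.94), *Gpihbp1* (0.93), *Pdgfb* (0.93) and *Apln* (0.92). The genes nearest to *Fabp5* were *Chst1* (0.92), *Rnasek* (0.91), *Coro1b* (0.91), *Crem* (0.88) and *Tmco1* (0.87). *Lpl* was nearest to *Itgb1* (0.91), *Spink8* (0.89), *Slc2a4* (0.88), *Mgst3* (0.88) and *Des* (0.83). *Fabp3* was nearest to *Atp5f1b* (0.96), *Fxyd1* (0.95), *Tpm1* (0.95), *Ndrg4* (0.95) and *Gng3* (0.94), and *Angptl4* to *Sdhaf1* (0.88), *Sectm1a* (0.88), *Fas* (0.88) and *Has2* (0.88). Among the 6 themselves, *Lpl* and *Fabp3* had an r of 0.73 and *Lpl* and *Gpihbp1* one of 0.20.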

How the data were processed

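The deposited matrices hold raw UMI counts per gene and cell. The submitters' processing notes name Cell Ranger 2.2.0 and Seurat 2.3.4, and by the study's methods the authors joined the libraries with RunCCA and clustered with FindClusters at a resolution of 0.5. Genome build and annotation are not given in the sources used here. All deposited cells with a cluster were used (2 control and 8 LPS cells have none), and no doublet was removed. Counts were summed per cluster and library in Python 3.11.15 with numpy 2.4.6, pandas 2.3.3 and scipy 1.17.1. Intervals (95%) were Clopper-Pearson for shares, exact Poisson for levels and, for ratios, exact and conditional on the sum. They hold no variation between cultures. For 0 UMIs the limit was set at 3. Thinning to 3000 UMIs left out 79 LPS cells. Ratios needed 50 UMIs over both libraries, except among the alternatives and the cell type markers. Other genes were named by rule: the 2 largest log2 ratios of each list in clusters 4 and 3, and the 5 genes most like each member. Of these, 1 gene like *Angptl4* and the summary of a further list, of other binding proteins, are not reported here. The members and lists were chosen with earlier results of these data known. Scripts were tested on simulated data. Alternatives changed the level, cell filter, depth, denominator, scaling, class, minimum and fold.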

Additional observations from a re-analysis of the deposited data

Results flagged for a closer look

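The *Lpl* ratio of LPS to control in cluster 4 (1.82) was 2.34 times that in cluster 2 (0.777). The lipase gene was higher in LPS in cluster 4 and lower in cluster 2, the cluster with pericyte markers. In cluster 2 the median ratio of all genes was 0.921, and 25.7% of genes had a lower ratio than *Lpl*. In cluster 4 that share was 96.7%. In cluster 5, also named Endothelial, the ratio was 0.710 (0.453 to 1.10), and in the macrophages of cluster 6 it was 1.48 (0.972 to 2.26). With 1 library per condition this difference between the clusters was not tested.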

How the results depend on the processing

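No paired analysis was possible because the design has 1 library of each condition. *Cd36* could be given no value. Of 509 ratios under the alternatives, 440 stayed within their counting interval, 66 left it, and 3 whose interval had excluded 1 changed direction. The 509 include ratios below the minimum of 50 UMIs, whose intervals are wide and seldom left. The share that stayed is thus no measure for the ratios above that minimum. In cluster 4, taking any cell with at least 3 endothelial markers as the class gave 0.988 for *Gpihbp1*, 1.43 for *Lpl*, 0.744 for *Fabp5*, 2.41 for *Angptl4* and, reversed, 1.11 for *Fabp4*. Of these cells, 43.0% in control and 72.5% in LPS lay in clusters 4 and 5. With markers and levels both taken after thinning, an alternative chosen after seeing the data, 94.7% and 95.8% did. The ratios were then 0.528 for *Gpihbp1*, 0.808 for *Fabp3* (32 and 27 UMIs), 0.635 for *Fabp4* and 0.476 for *Fabp5*. Thinned cells of cluster 4 gave 0.516, 0.625 and 0.474 for *Gpihbp1*, *Fabp4* and *Fabp5*, and the mean of the cells' own CPM 0.532, 0.636 and 0.475. All cells named Endothelial gave 0.636 for *Fabp4* and 0.477 for *Fabp5*, division by the median ratio of all genes 0.721 and 0.526, and dropping the 8% richest cells 0.661 for *Fabp4*. The cause of these shifts was not tested. The other reversed values rest on few UMIs: *Gpihbp1* in cluster 3 in cells with at most 10% mitochondrial UMIs (1.04, 1 UMI in each library) and *Angptl4* in cluster 6 after thinning (0.969, 13 UMIs in each). Genes past 2-fold in cluster 4 numbered 639 with a minimum of 50 UMIs, 1053 with 20 and 309 with 200, and 1788 were past 1.5-fold. Fewer *Lpl*, *Fabp3* and *Angptl4* UMIs make their intervals wider. The median log2 ratio of all genes was -0.13 in cluster 0, -0.12 in cluster 2 and -0.31 in cluster 6, and ratios near 1 there, such as that of *Lpl* in cluster 0 (0.956, or 1.05 after division by that median), change side. Without cells with at least 3 endothelial markers or the 3 richest cells, both chosen after seeing the data, the *Fabp4* ratio of cluster 7 was at most 0.368. Of the 5 genes most like each member, 2 (*Fabp4*) to 5 (*Fabp5*) stayed with a pseudocount of 10.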
